A study of Mus musculus with 6 samples.

Results

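Temperature-sensitive TRP and K2P channels were followed in the preoptic hypothalamus of warm-exposed mice by looking up 10 gene symbols, 7 for TRP channels (Trpm2, Trpm3, Trpm4, Trpv2, Trpv4, Trpc4 and Trpc5) and 3 for K2P channels (Kcnk2, Kcnk4 and Kcnk10). Each of 9 genes had 1 entry among the 13724 entries of the table. No entry stood under the symbol Trpv4, so it was not analysed here. All 6 libraries came from wild type C57Bl6/J mice placed in warm temperatures, in 3 numbered warm challenges. Every challenge gave an input library of total RNA and an immunoprecipitate (IP) of RNA bound to ribosomes whose S6 protein was phosphorylated at sites 244 and 247, so there were 3 inputs and 3 IP libraries. Phosphorylation of S6 follows neuronal activity, and IP was set against input to ask which transcripts active neurons carry. No library came from mice at another temperature, so enrichment in IP cannot be tied to warmth. The labels do not say how many animals each challenge held, and the tissue was anterior hypothalamus dissected from 0.5 mm sections.

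TRP channels are cation channels whose opening depolarizes a cell, and several of them open more readily when warmed, or, for Trpc5, when cooled. The K2P channels Kcnk2 (TREK-1), Kcnk4 (TRAAK) and Kcnk10 (TREK-2) are tandem-pore potassium leak channels that heat, membrane stretch and arachidonic acid open, and their opening holds a neuron back from firing. Preoptic neurons sense brain temperature and drive heat loss, and channels of both families have been studied as candidate sensors there.

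Levels are RPKM, read counts divided by gene length and library size, so genes can be compared with each other by length-adjusted level. Summed RPKM lay between 374708 and 496125 per library, and the number of reads behind a value is unknown. Neuronal markers were abundant, with 5 of 6 listed and a summed level of 3811 to 5187 RPKM in input and 3053 to 6638 RPKM in IP. Most of that sum was Snap25, at 2790 to 4144 RPKM in input and 2063 to 5392 RPKM in IP. Of 9 preoptic and anterior hypothalamic transcription factors, 6 had a value, with summed levels of 92.6 to 109 RPKM in input and 117 to 169 RPKM in IP. The highest, Zic1, had means of 51.7 RPKM in input and 87.3 RPKM in IP, and Nkx2-1 had 16.5 and 12.5 RPKM. Of the 4 tested none passed in the main comparison below, and 2 were called higher without IP 1. IP 1 stood apart: over all genes limma, a moderated linear model, called 516 genes with it and 1693 without it.

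No channel gene passed the test of IP against input. Of the 8 members with at least 1 RPKM in 3 or more libraries, 0 were higher, 0 lower and 8 did not pass an adjusted p of 0.05 (limma on log2(RPKM + 1), Benjamini-Hochberg over 12328 genes tested), where 4.19% of all genes passed (0.892% higher and 3.29% lower). No member was called either when the fit held the challenge number as a block, where 5.32% of all genes were (1.33% higher and 3.99% lower), or without IP 1, where 13.8% were (3.62% higher and 10.2% lower). The count of members with an unadjusted p under 0.05 was 0 in limma with and without the block, against 24.4% of all genes without it. After quantile normalization the 95% intervals of Trpm4 and Trpv2 lay above 0, and neither gene passed the adjusted threshold. The members' median log2 fold of IP over input was -0.03, or 0.13 after each library was scaled to a common median, beside -0.18 and 0.00 over all genes. That scaling also turned the calls over all genes from 110 higher and 406 lower into 126 and 125. The 95% intervals lay within 1 log2 unit of zero for 6 of the 8 members, and those of Trpv2 and Trpm4 reached 1.17 and 1.13. Changes within the interval given for each gene could not be told from none. The pseudocount of 1 also shortens the intervals, most for low genes. With 0.1 the upper bound was 1.92 for Trpm4, 1.44 for Trpv2 and 1.05 for Trpc5. The lower bound was then -1.42 for Kcnk10, -1.05 for Trpm3 and -1.003 for Kcnk2. Only the intervals of Trpm2 and Trpc4 stayed within 1 log2 unit of zero with 0.1.

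**Figure D1:**
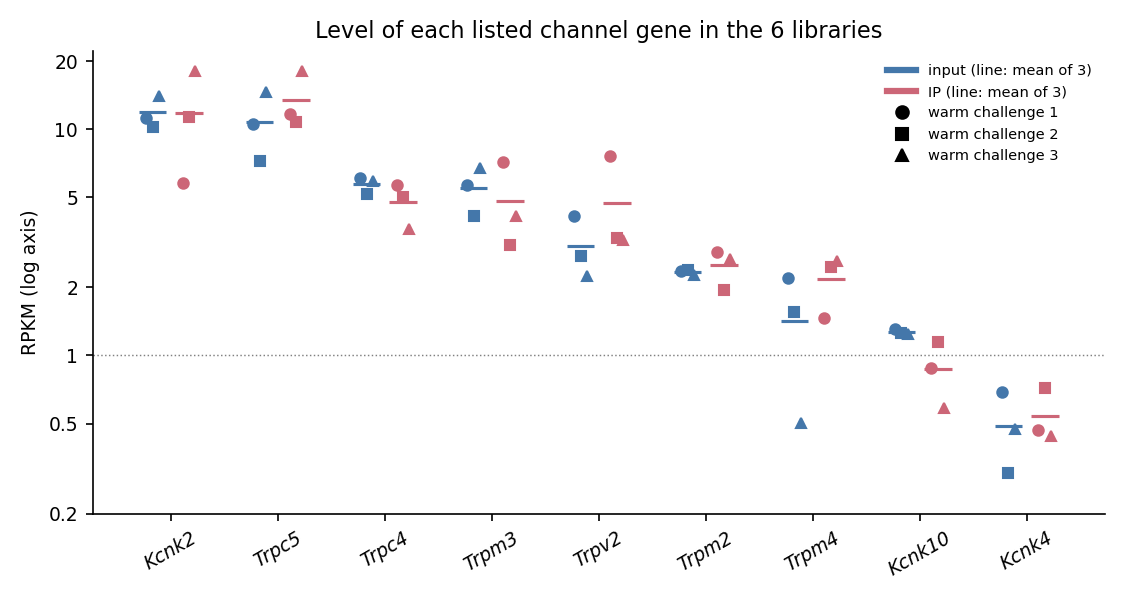
RPKM of the 9 listed channel genes (log axis) in each input (blue) and IP (red) library, with symbols for the 3 warm challenges, a horizontal line at each mean and a dotted line at 1 RPKM. Kcnk2 and Trpc5 stand highest, Kcnk4 lies under 1 RPKM in all 6 libraries, and the groups overlap for each gene but Kcnk10.

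The highest levels belonged to one K2P channel and one TRPC channel. In input the order of mean levels was Kcnk2, Trpc5, Trpc4, Trpm3, Trpv2, Trpm2, Trpm4, Kcnk10 and Kcnk4. Neighbours overlapped in their 3 values for Kcnk2 and Trpc5, Trpc4 and Trpm3, Trpv2 and Trpm2, and Trpm4 and Kcnk10. In IP Trpc5 stood first and Kcnk2 second, and Trpm3 and Trpc4 changed places, all with overlapping values. The 9 genes together held 35.1 to 48.1 RPKM in input and 39.8 to 53.5 RPKM in IP.

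Kcnk2, the TREK-1 leak channel, stood at 11.2, 10.3 and 14.1 RPKM in inputs 1, 2 and 3 and at 5.80, 11.3 and 18.1 RPKM in the matching IP libraries. IP 1 was the lowest and IP 3 the highest of the 6, so the IP libraries spanned the whole input range. The means were 11.9 ± 1.98 and 11.8 ± 6.17 RPKM (SD, n = 3 each), above 58.1% of all listed entries in input. The log2 fold was -0.12 (SE 0.35, 95% interval -0.91 to 0.66, limma adjusted p = 0.866), and its sign turned without IP 1 (0.27, adjusted p = 0.502) and after scaling to a common median (0.07).

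Kcnk10, the TREK-2 channel, was the 1 member tested whose groups did not overlap, and the groups did not overlap for 30.4% of all genes tested. It stood at 1.31, 1.26 and 1.25 RPKM in inputs 1 to 3 and at 0.884, 1.15 and 0.584 RPKM in IP 1 to 3. The 3 inputs lay close together and each IP value was below them. The log2 fold was -0.29 (SE 0.21, 95% interval -0.76 to 0.18, limma adjusted p = 0.431), and -0.03 after quantile normalization. Kcnk4, the TRAAK channel, was the lowest member, with 0.688, 0.302 and 0.471 RPKM in input and 0.467, 0.721 and 0.440 RPKM in IP. It reached 1 RPKM in 0 libraries and entered a test only with no filter (log2 fold 0.06, 95% interval -0.31 to 0.42, limma adjusted p = 0.873), where 3.34% of all genes were called. At these levels most of the signal on the log2(RPKM + 1) scale is the added 1, so its interval says little about a relative change.

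The balance among the K2P channels varied between libraries more than between fractions. Kcnk2 exceeded Kcnk10 by 8.57, 8.15 and 11.3 times in inputs 1, 2 and 3 and by 6.56, 9.84 and 31.0 times in the IP libraries. The log2 ratio, with 1 RPKM added to each gene, was higher in IP in 2 of 3 pairs by a mean of 0.17 (exact permutation test, two-sided, p = 0.800, n = 3 each). Kcnk2 exceeded Kcnk4 by 16.3 to 34.0 times in input and 12.4 to 41.2 times in IP, with a mean difference in log2 ratio of -0.18 (exact permutation p = 0.700, n = 3 each). Such an exact test of 3 against 3 cannot go below p = 0.10, and adjusted over the 4 ratios compared each exact p was 0.800. Without IP 3 the mean difference was -0.30 for the ratio to Kcnk10, and without IP 1 it was 0.18 for the ratio to Kcnk4.

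Trpc5 and Trpc4 are close relatives that form Gq-coupled, calcium-permeable channels together or alone. Trpc5 stood at 10.6, 7.23 and 14.6 RPKM in inputs 1 to 3 and at 11.6, 10.8 and 18.1 RPKM in IP 1 to 3. It was higher in IP in each of the 3 pairs, by 1.10, 1.49 and 1.23 times, yet the groups overlapped because challenge 3 was the highest in both fractions. Its log2 fold was 0.31 (SE 0.29, 95% interval -0.35 to 0.97, limma adjusted p = 0.559). Trpc4 stood at 6.08, 5.20 and 5.89 RPKM in input and at 5.67, 5.04 and 3.62 RPKM in IP, lower in each of the 3 pairs. IP 2 and IP 3 lay below every input and IP 1 among the inputs, and the log2 fold was -0.23 (SE 0.22, 95% interval -0.74 to 0.27, limma adjusted p = 0.566). After scaling to a common median the log2 fold was -0.06 for Trpc4 and 0.50 for Trpc5.

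The ratio of these TRPC genes moved one way in all 3 pairs. Trpc4 was 0.576, 0.719 and 0.402 times the level of Trpc5 in inputs 1, 2 and 3 and 0.488, 0.467 and 0.201 times in the IP libraries. Each IP ratio was below that of its own input, although the ratio of input 3 was below those of IP 1 and IP 2. The mean log2 ratio was -0.77 ± 0.39 in input and -1.31 ± 0.64 in IP, a difference of -0.54 (exact permutation test, two-sided, not paired, p = 0.400, n = 3 each). The 3 pairs differed by -0.22, -0.56 and -0.86. Without IP 3 the difference was -0.18, and over all 6 libraries it was smaller than the range within either fraction.

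**Figure D2:**
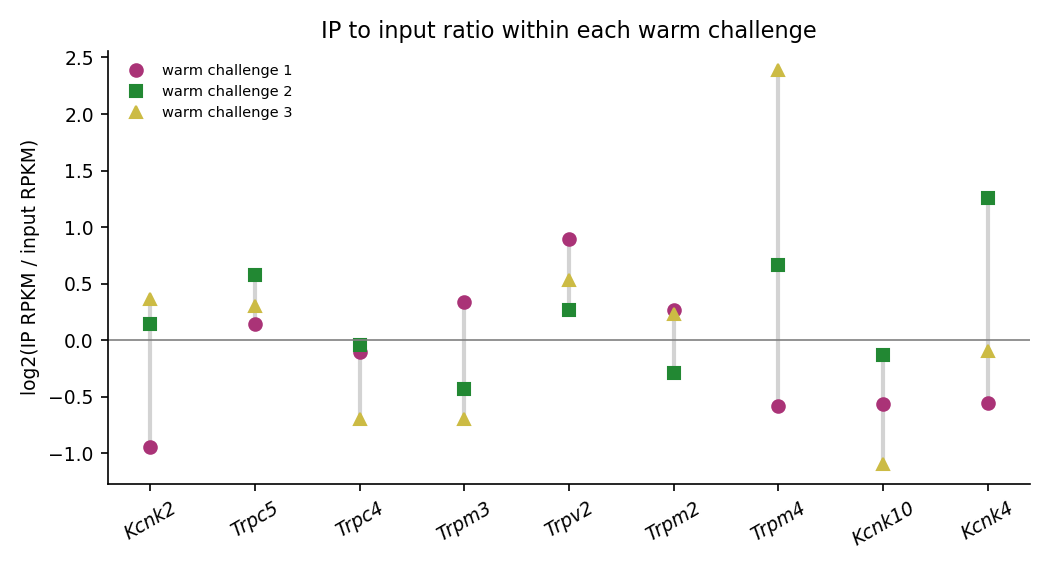
The log2 ratio of IP to input RPKM, with nothing added, for the 9 listed genes in each warm challenge; the grey bar joins the lowest and highest challenge and the line at 0 marks equal levels. Trpc5 and Trpv2 lie above 0 in all 3 challenges, Trpc4 and Kcnk10 below 0 in all 3, and the other 5 genes on both sides.

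Trpm2, a calcium-permeable channel opened by ADP-ribose and by heat, varied little between inputs and more between IP libraries. It stood at 2.37, 2.39 and 2.28 RPKM in inputs 1 to 3 and at 2.86, 1.96 and 2.68 RPKM in IP 1 to 3. The IP values lay on both sides of the inputs, whose coefficient of variation was 2.52%, against 19.2% in IP. The log2 fold was 0.06 (SE 0.21, 95% interval -0.42 to 0.53, limma adjusted p = 0.908). That interval runs from a 1.33-fold reduction to a 1.44-fold enrichment on the log2(RPKM + 1) scale. The mean input level was above 21.1% of all listed entries.

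Trpm3, a channel opened by heat and by the neurosteroid pregnenolone sulfate, stood at 5.68, 4.15 and 6.71 RPKM in inputs 1 to 3 and at 7.17, 3.07 and 4.14 RPKM in IP 1 to 3. IP 1 was the highest library and IP 2 the lowest, and the pairs did not share a direction. The log2 fold was -0.21 (SE 0.30, 95% interval -0.88 to 0.45, limma adjusted p = 0.708), and 0.01 after quantile normalization. Without IP 1 it was -0.49 (adjusted p = 0.216).

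Trpm4, which passes monovalent cations when internal calcium rises, had the smallest p-value of the members, and 1 input lay far from the others. It stood at 2.20, 1.55 and 0.501 RPKM in inputs 1 to 3 and at 1.47, 2.45 and 2.62 RPKM in IP 1 to 3. IP was 0.668, 1.58 and 5.23 times the input in the 3 challenges, so the sign differed between challenge 1 and the others. The log2 fold was 0.44 (SE 0.31, 95% interval -0.25 to 1.13, limma adjusted p = 0.412), and 0.13 without input 3. It was 0.68 without input 1 and 0.57 after scaling to a common median. Quantile normalization gave 0.70 (95% interval 0.03 to 1.37, limma adjusted p = 0.228). The log2 ratio of Trpm2 to Trpm4 was lower in IP by 0.39 on average, in 2 of 3 pairs (exact permutation test, two-sided, p = 0.400, n = 3 each). The genes whose pattern over the 6 libraries was nearest to that of Trpm4, by the root mean square difference of mean-centred log2(RPKM + 1), were Atp6v0c (0.11), Emx2 (0.11) and Vasp (0.11).

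Trpv2, a cation channel opened by strong heat and by stretch, was higher in IP in each of the 3 pairs. It stood at 4.12, 2.74 and 2.24 RPKM in inputs 1 to 3 and at 7.66, 3.30 and 3.24 RPKM in IP 1 to 3. IP 1 was the highest library and IP 2 and IP 3 lay below input 1, so the groups overlapped. The log2 fold was 0.45 (SE 0.32, 95% interval -0.27 to 1.17, limma adjusted p = 0.428), and 0.11 without IP 1 (adjusted p = 0.793). It was 0.64 without input 1 and 0.61 after scaling to a common median. Quantile normalization gave 0.70 (95% interval 0.01 to 1.39, limma adjusted p = 0.241). In all, 4 of the 8 members tested moved the same way in the 3 pairs, as did 51.5% of all genes tested.

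**Figure D3:**
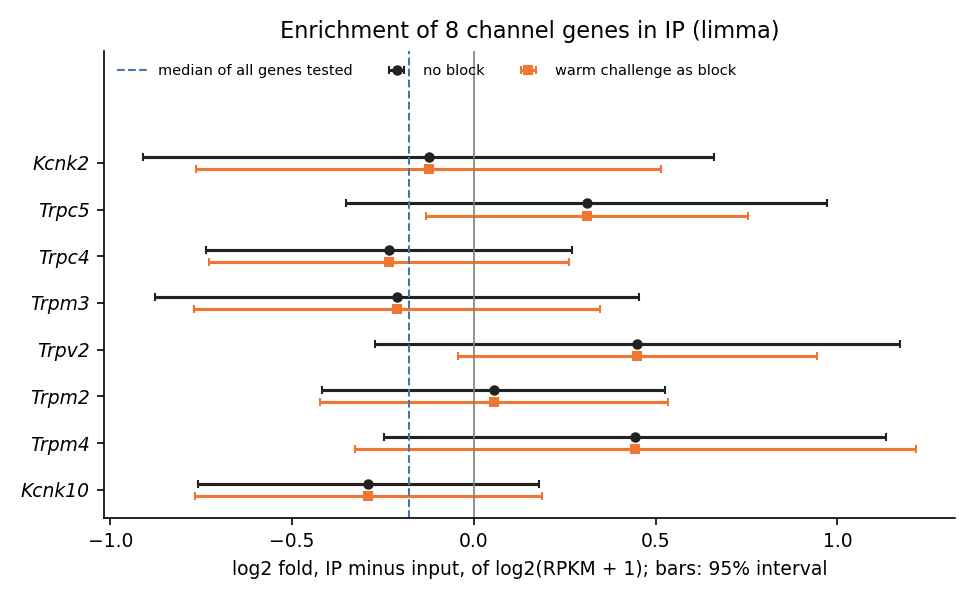
Log2 fold of IP over input on the log2(RPKM + 1) scale for the 8 members tested, with 95% intervals from limma without a block (black) and with the challenge number as a block (orange); the dashed line is the median of all genes tested, -0.18. Every interval drawn includes 0.

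Other cell types of the hypothalamus also carry some of these channels, and markers of some of these types were lower in IP. Of the 5 neuronal markers tested none passed (limma), 4 with a positive and 1 with a negative log2 fold. Of 6 oligodendrocyte markers 5 were lower in IP (limma), with summed levels of 796 to 849 RPKM in input and 254 to 320 RPKM in IP. After median scaling Mbp (adjusted p = 0.0921) and Cldn11 (adjusted p = 0.0986) did not pass. All 6 astrocyte markers had a value (sums of 56.3 to 103 and 27.9 to 85.4 RPKM), and none passed without the block and 1, Aqp4, was lower with it (limma adjusted p = 0.0400). Without IP 1, Gfap (log2 fold -1.43, limma adjusted p = 0.00994) and Aqp4 (-1.38, adjusted p = 0.0210) were lower. In the main fit 5 astrocyte markers had a negative log2 fold and 1, Aldh1l1, a positive one (0.30, and 0.12 without IP 1). Of 9 microglial markers 8 had a value (sums of 13.7 to 24.7 and 10.4 to 13.7 RPKM), and of the 3 tested none passed. Of the ependymal and choroid plexus markers 5 of 9 had a value and 1, Ccdc153, was lower in IP (sums of 29.9 to 36.1 and 14.8 to 39.8 RPKM). Its call (limma adjusted p = 0.0465) ended with no filter (0.0541), a pseudocount of 0.1 (0.0572), median scaling (0.0818) and quantile normalization (0.0893), and in 5 of the 6 omissions of 1 library. Of 7 endothelial and mural markers 2 had a value, and 1, Rgs5, was tested and lower (sums of 3.36 to 5.55 and 1.07 to 2.08 RPKM), a call that ended after quantile normalization (limma adjusted p = 0.0582) and in 4 of the 6 omissions. Their part in the channel levels was not tested. Input and IP are fractions of the same warm challenge. Within a fraction of bulk tissue, few cells of a type and little RNA per cell cannot be told apart.

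The rest of both channel families was read from lists of 21 other TRP and 11 other K2P genes. Of the TRP genes 10 had a value and 7 were tested, and none passed the threshold in the main comparison (median log2 fold -0.01). Trpm7, a channel fused to a kinase, stood at 4.04, 4.35 and 5.95 RPKM in input and 3.57, 1.91 and 1.60 RPKM in IP, below every input. Its log2 fold was -0.81 (SE 0.27, limma adjusted p = 0.111), and without IP 1 it was called lower (-1.06, adjusted p = 0.0270). Pkd2, the polycystin-2 channel of cilia, had a log2 fold of -0.75 (SE 0.26, limma adjusted p = 0.122). The cold and menthol receptor gene Trpm8, named after its values were seen, stood at 0.161 to 0.256 RPKM in input and 0.299 to 0.471 RPKM in IP and did not reach the filter.

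Among the other K2P genes 6 had a value and 5 were tested, of which none passed without the block (median log2 fold 0.33). Kcnk9, the TASK-3 leak channel, stood at 10.4, 7.34 and 6.94 RPKM in inputs 1 to 3 and at 40.1, 18.2 and 12.7 RPKM in IP 1 to 3, above every input. Its log2 fold was 1.28 (SE 0.38, limma adjusted p = 0.0831), and in the blocked fit it was called higher (adjusted p = 0.0417). IP 1 was the highest library, and the fold was 0.83 without it (limma adjusted p = 0.0619) and 1.63 without IP 3. Kcnk1, the TWIK-1 channel, had the highest mean level of the listed genes of both families in either fraction, although Kcnk9 exceeded it in IP 1. It stood at 19.8 to 22.0 RPKM in input and 24.6 to 31.2 RPKM in IP (log2 fold 0.43, SE 0.20, limma adjusted p = 0.227). The summed level of the other K2P genes was 36.2 to 38.9 RPKM in input and 56.1 to 72.5 RPKM in IP, without overlap. Most of that sum was Kcnk1 and Kcnk9, and neither passed without the block. Kcnk6 went the other way, lower in IP in each of the 3 pairs (means of 1.35 and 0.77 RPKM). The sum of Kcnk2, Kcnk4 and Kcnk10 was 11.8 to 15.8 and 7.15 to 19.1 RPKM, with overlap. Whether the K2P groups differ in enrichment was not tested.

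**Figure D4:**
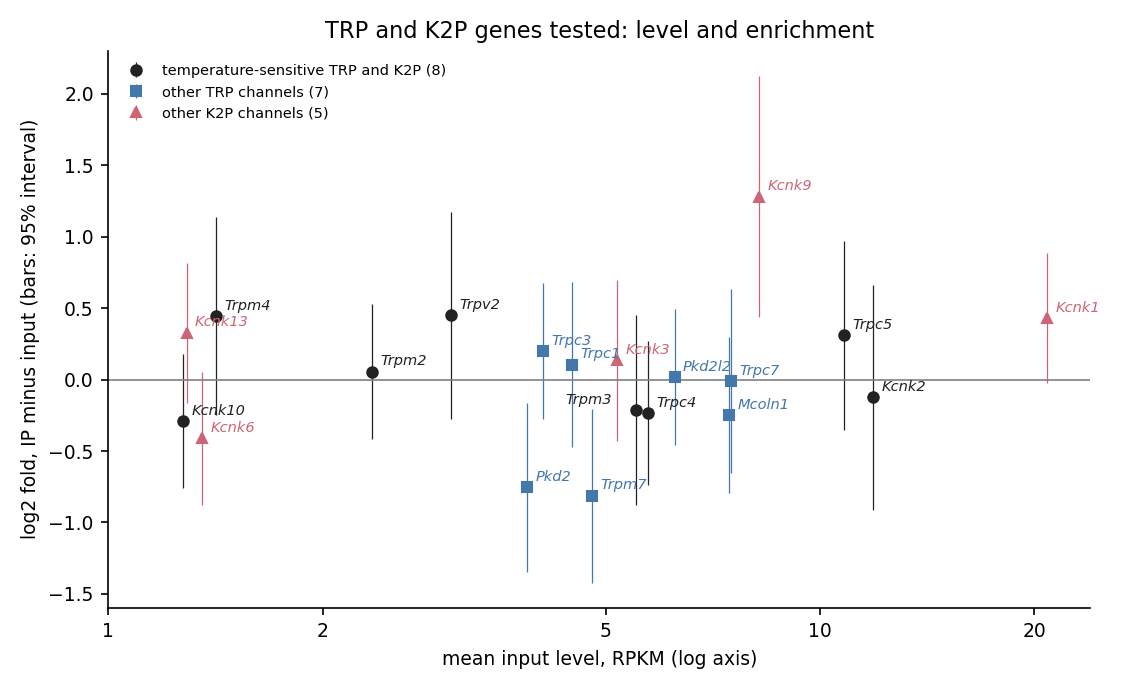
Mean input level in RPKM (log axis) against the log2 fold of IP over input with its 95% interval, for the 8 temperature-sensitive members (black), 7 other TRP genes (blue) and 5 other K2P genes (red) that were tested. Kcnk9 stands highest in fold at 1.28, Trpm7 and Pkd2 lowest at -0.81 and -0.75, and the members lie between -0.29 and 0.45.

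Genes that act upstream of these channels or bind them were measured in 4 further lists. TRPC channels open downstream of Gq and phospholipase C beta, and of 7 such genes 4 were tested and none passed, with Gna11 at a log2 fold of -0.37 (limma adjusted p = 0.299) and Plcb1 at 0.30 (adjusted p = 0.604). Of 5 store-operated calcium entry genes none passed. Stim1, the calcium sensor of the endoplasmic reticulum, had 0.48 (limma adjusted p = 0.205) and Orai1, the pore it opens, 0.44 (adjusted p = 0.277). Of 6 genes of ADP-ribose metabolism, which makes or removes the ligand of Trpm2, none passed without the block. Cd38, an enzyme that makes ADP-ribose from NAD, stood at 5.52, 3.17 and 3.71 RPKM in input and 2.91, 0.948 and 0.712 RPKM in IP, below every input. Its log2 fold was -1.10 (SE 0.33, limma adjusted p = 0.0903), and it was called lower with the block (adjusted p = 0.0449) and without IP 1 (-1.47, adjusted p = 0.0148). Parp2, a poly(ADP-ribose) polymerase, had -0.46 (limma adjusted p = 0.309).

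Of 11 partner symbols, 2 of which (Map2 and Mtap2) name 1 gene, 8 were tested and 1 was higher in IP. Homer1, a synaptic scaffold that binds TRPC channels and has a short form induced by activity, stood at 13.4, 13.5 and 24.7 RPKM in inputs 1 to 3 and at 37.1, 59.4 and 144.5 RPKM in IP 1 to 3. Each IP library exceeded every input, and the log2 fold was 1.99 (SE 0.45, limma adjusted p = 0.0447). The call ended in 5 of the 6 omissions of 1 library, holding only without IP 1 (adjusted p = 0.0133), and also ended with no filter (adjusted p = 0.0501). The gene-level values do not separate the forms of Homer1. Slc9a3r1, a scaffold that binds the ends of Trpc4 and Trpc5, had a log2 fold of -0.85 (SE 0.22, limma adjusted p = 0.0583), and without IP 1 it was called lower (-0.96, adjusted p = 0.0267).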

How the data were processed

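Per the file headers, the authors deposited linear RPKM for each gene, 1 column a library. Per the submitters' processing notes, the genome build was mm9. Which aligner, counter and annotation served is not given in the sources used here. Listed values start at 0.101 RPKM. In addition, 12 symbols stand on 2 entries, none a member. RPKM holds no read counts, so absolute depth is unknown, and low values did not settle relative depth. Values under 0.6 RPKM were set against those of input 1 for ratios of small whole numbers. At the best offset 14.4 to 17.2% of them lay within 1% of such a ratio. The median over the offsets tried was 6.69 to 7.22%. Groups came from the sample titles. Genes that reached 1 RPKM in 3 or more of the libraries were fitted as log2(RPKM + 1) with limma 3.58.1 (mean-variance trend, two-sided, no block) in R 4.3.3 and adjusted by Benjamini-Hochberg over all genes tested, at a threshold of 0.05. The fit was tested on simulated data. On this scale the change of low genes is understated. Ratios of related channels were compared over libraries by exact permutation with scipy 1.17.1, and plots used matplotlib 3.10.9.

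Input and IP of 1 warm challenge share its number in the labels, and directions within pairs are given on that ground. Of the tests, only the blocked fit used this pairing. The main fit and the exact permutation tests did not. Deviations of input and IP from their group means correlated across genes by 0.05, 0.61 and 0.27 for numbers 1, 2 and 3. Between unlike numbers the correlation ran from -0.52 to 0.18. Input 3 with IP 1 (0.18) and input 1 with IP 2 (0.16) exceeded the value of number 1. Where nothing says that challenges were separate animals, p-values measure only the spread between these libraries. The members and lists were chosen with earlier results of these data known. The text names each member, each companion gene past the threshold, the 2 tested companions per list with the largest absolute fold, and the 3 genes nearest in pattern to the member with the smallest p. Alternatives were pseudocounts of 0.1 and 5, no filter and 5 RPKM, median scaling, quantile normalization, no trend, the block, and leaving out each library. No coordinates or sequences are given, because a genome of build mm9 and protein sequences were not used here.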

Additional observations from a re-analysis of the deposited data

How the results depend on the processing

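None of the 8 members tested passed the threshold under any of the 14 alternatives in which they were fitted (Trpm2, Trpm4, Trpv2 and Kcnk10 were not with the filter of 5 RPKM), and the lowest adjusted p was 0.201, that of Trpv2 in the blocked fit. The block, no trend, no filter and the filter of 5 RPKM leave the log2 fold of a gene as in the main fit, so their values could not turn. Of 108 member values under an alternative, counting those, 102 kept their direction, and 6 turned. These were Trpm2 without IP 1 (-0.021), Trpm3 after quantile normalization (0.013) and without IP 2 (0.013), and Kcnk2 after median scaling (0.066), after quantile normalization (0.027) and without IP 1 (0.27). Over the omissions of 1 library Trpm2 ran from -0.021 to 0.17, Trpm3 from -0.49 to 0.013 and Kcnk2 from -0.48 to 0.27. The log2 ratio of Kcnk2 to Kcnk10 ran from -0.30 (without IP 3) to 0.57 over these omissions, and that of Kcnk2 to Kcnk4 from -0.58 to 0.18 (without IP 1). The ratio with Trpv4 was not run. Genes called numbered 251 after median scaling and 245 after quantile normalization, against 516, and 21 to 1693 over the omissions. Called companion genes were 1 in the main comparison, 0 with no filter and 3 with the block (Homer1, Kcnk9 and Cd38), and 0 to 4 over the omissions. The paired fit, which holds the challenge number as a block, called 656 genes and 0 members, and changed no companion call other than those of Kcnk9 and Cd38. Omissions leave fewer samples, and the cause of each other shift was not tested. Kcnk4, Kcnk10 and Trpm4 had values under 1 RPKM, where the pseudocount weighs on the fold.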
